A study of Homo sapiens with 10 samples.

Results

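The data describe 9 genes of the NF-kB response in gastric cancer cells sorted by dye efflux: the chemokines CXCL8, CXCL1, CXCL2, CXCL3 and CCL20, the adhesion receptor ICAM1, the mitochondrial enzyme SOD2, and the feedback inhibitors NFKBIA and TNFAIP3. They were taken by symbol as every probe set annotated to exactly 1 of 10 listed genes, which gave 16 probe sets for 9 of the 10 genes among 19775 genes on the array. The listed gene without a value is BIRC3, which no probe set named, so it was not analysed here. The genes were chosen by the measured differences between side population and unsorted cells, in which CXCL8 and SOD2 stood out. Values against unsorted cells are therefore given as a description, and the genes were tested between side and non-side population.

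Cells of a side population stay dim after staining with a Hoechst dye because their membrane transporters expel it, which allows a flow sorter to part them from the brightly stained non-side population. Side population and non-side population RNA was hybridised to 4 arrays each, with replicate letters a to d, and RNA of unsorted cells to 2 arrays, a and b. The titles give side and non-side population arrays of the same letter the same replicate group. All cells were grown in serum-containing medium and harvested with trypsin. The origin label of all 10 arrays names 2 established gastric carcinoma lines, AGS and MKN 45. The source label names AGS on 8 arrays and no line for side population replicates a and b. The labels do not say whether replicates came from separate cultures, nor whether unsorted cells were stained or passed through the sorter. The p-values thus measure the spread between these arrays, which may be technical, and handling during the sort cannot be told apart from the sorted groups.

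NF-kB is a family of transcription factors that are held in the cytoplasm by IkB proteins until a signal, such as tumour necrosis factor, interleukin-1 or a bacterial product, leads IkB kinase to mark the inhibitor for destruction. The freed dimers bind kappaB sites beside genes for chemokines, adhesion molecules and survival factors, and also beside the genes for their own inhibitors, which closes a feedback loop. Gastric epithelial cells are known to make CXCL8 through this route when they meet Helicobacter pylori.

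The kappaB-like letters before the start of these genes are shown first, because genes that share them did not share a pattern on the arrays. Promoters of all 10 listed genes were taken from RefSeq (build GRCh38.p14, 250 bases before to 50 after each start, 13 promoters since SOD2 has 4). They were searched on both strands for GGAATTTCC, whose reverse complement is GGAAATTCC. The letters occurred before 6 of the 10 genes and in 162 of all 35116 promoters of this length (0.461%). The former is a count of genes and the latter of promoters, and CXCL1, CXCL2 and CXCL3 are close paralogues. Enrichment was not tested. A match is a description of the letters and not a measured site. Capitals below mark the match.

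The 250 bases before the start of CXCL8 lie at chr4:73740319-73740568 on the plus strand, and the match begins 91 bases before the start.
CXCL8: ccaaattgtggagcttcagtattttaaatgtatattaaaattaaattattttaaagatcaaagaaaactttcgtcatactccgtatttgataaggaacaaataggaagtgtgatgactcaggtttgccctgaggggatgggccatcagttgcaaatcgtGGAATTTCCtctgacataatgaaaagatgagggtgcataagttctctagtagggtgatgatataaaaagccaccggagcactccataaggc

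CXCL1, CXCL2 and CXCL3 carry the same 9 letters 78, 77 and 78 bases before their starts. Windows of 30 bases around the match lie at chr4:73869305-73869334 (CXCL1, plus strand), chr4:74099253-74099282 (CXCL2, minus strand) and chr4:74038748-74038777 (CXCL3, minus strand).
CXCL1: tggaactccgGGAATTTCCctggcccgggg
CXCL2: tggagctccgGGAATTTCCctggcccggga
CXCL3: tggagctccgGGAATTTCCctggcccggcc
These windows were identical at 27 of 30 bases for CXCL1 and CXCL3 and at 28 of 30 for each of the other pairs. The same window of CXCL8 matched that of CXCL1 at 17 bases and those of CXCL2 and CXCL3 at 16.

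NFKBIA and ICAM1 hold the reverse complement. The 250 bases before NFKBIA lie at chr14:35404750-35404999 on the minus strand with the match 81 bases before the start. The window before ICAM1 lies at chr19:10270924-10270953 on the plus strand with the match 186 bases before the start.
NFKBIA: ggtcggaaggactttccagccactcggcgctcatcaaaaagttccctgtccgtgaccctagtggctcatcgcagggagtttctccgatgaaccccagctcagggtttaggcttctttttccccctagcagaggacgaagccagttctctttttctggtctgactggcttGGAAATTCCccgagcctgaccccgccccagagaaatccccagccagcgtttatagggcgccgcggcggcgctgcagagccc
ICAM1: gctttagcttGGAAATTCCggagctgaagc
The longer NF-kB consensus of 10 letters, searched on both strands, occurred before 7 genes (CXCL1, CXCL2, CXCL3, CCL20, NFKBIA, TNFAIP3 and BIRC3) and in 11.3% of all promoters. Its matches overlap the 9 letters in CXCL1, CXCL2, CXCL3 and NFKBIA. In CXCL8, ICAM1 and the 4 SOD2 promoters this consensus was not in the window, and in SOD2 neither were the 9 letters.

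Array quality varied in ways that touch some of the values. The ratio of 3' to 5' intensity of the actin control was 3.34 in side population replicate a and 0.987 to 1.28 on the other 9 arrays. The 5' control for 18S ribosomal RNA was bright, at 22182.4 to 33704, on 6 sorted arrays. It was dim in side population d (851.2), in non-side population c (563) and in unsorted a (274.6) and b (828.3). Of 10 gastric epithelial markers, 9 lay above the array median on all 10 arrays, TFF2 being the exception. The epithelial sum ranged from 102183 to 123135 in side population, 89886 to 141184 in non-side population and 123112 to 130872 in unsorted cells. Within that list, 2 of 9 tested markers (22.2%) were called against unsorted cells in both comparisons. Over all genes 2.35% were called for side population and 3.52% for non-side population minus unsorted. The endoderm transcription factor GATA6 averaged 2300 in side population, 1790 in non-side population and 8010 in unsorted cells, a log2 difference from unsorted cells of -1.82 ± 0.36 for side population (adjusted p = 0.0201, limma) and -2.28 ± 0.36 for non-side population (adjusted p = 0.00434). The trefoil peptide TFF1 averaged 1250 in side population, 1430 in non-side population and 484 in unsorted cells, a log2 difference of 1.36 ± 0.27 for side population (adjusted p = 0.0225, limma) and 1.51 ± 0.27 for non-side population (adjusted p = 0.0095). By replicate letter, MUC1 read 2668.6 to 5071.7 on the sorted arrays a and b and 9282.2 to 11044.9 on c and d. The leukocyte marker LYZ read 20246.8 to 21539.1 on sorted a and b and 28301.5 to 32403.4 on c and d. The part of these shifts in the values below was not tested. Of 7 leukocyte markers measured, PTPRC and CD3E lay below the array median on all 10 arrays, while LYZ lay above it on all 10 and ITGAM on 9. Of 6 endothelial markers, 5 lay below it on all 10 arrays and PECAM1 on 2. Of 7 fibroblast markers, COL1A2, COL3A1 and LUM lay below it on all 10 arrays, THY1 on 2 and COL1A1 on none. Summed leukocyte markers, almost all LYZ, which gastric epithelium also makes, ranged from 20613 to 32248 in side population, 21536 to 32682 in non-side population and 28992 to 28994 in unsorted cells. The endothelial sum was 187 to 295 in side population, 129 to 314 in non-side population and 198 to 213 in unsorted cells. The fibroblast sum, mostly COL1A1, was 1287 to 2316 in side population, 1307 to 1838 in non-side population and 1558 to 2286 in unsorted cells.

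The 9 genes did not move as 1 group. Read from 1 probe set for each gene, CXCL8 and SOD2 were higher on every sorted array than on either unsorted array. In the same reading NFKBIA was lower on every sorted array, and CXCL2, CXCL3 and CCL20 overlapped between all groups. In cultures of many cells, fewer cells expressing a gene and less RNA per cell cannot be told apart. Intensities are the deposited values, and a log2 difference is that of log2(intensity + 6.1) in a limma fit over all 10 arrays, with its standard error. Of the 9 genes, 8 entered the fit across 9888 genes, and CCL20 was under its filter on low intensity. CXCL8, CXCL1 and SOD2 averaged below the filter's intensity of 149 in unsorted cells, so they passed it through the sorted arrays.

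**Figure D1:**
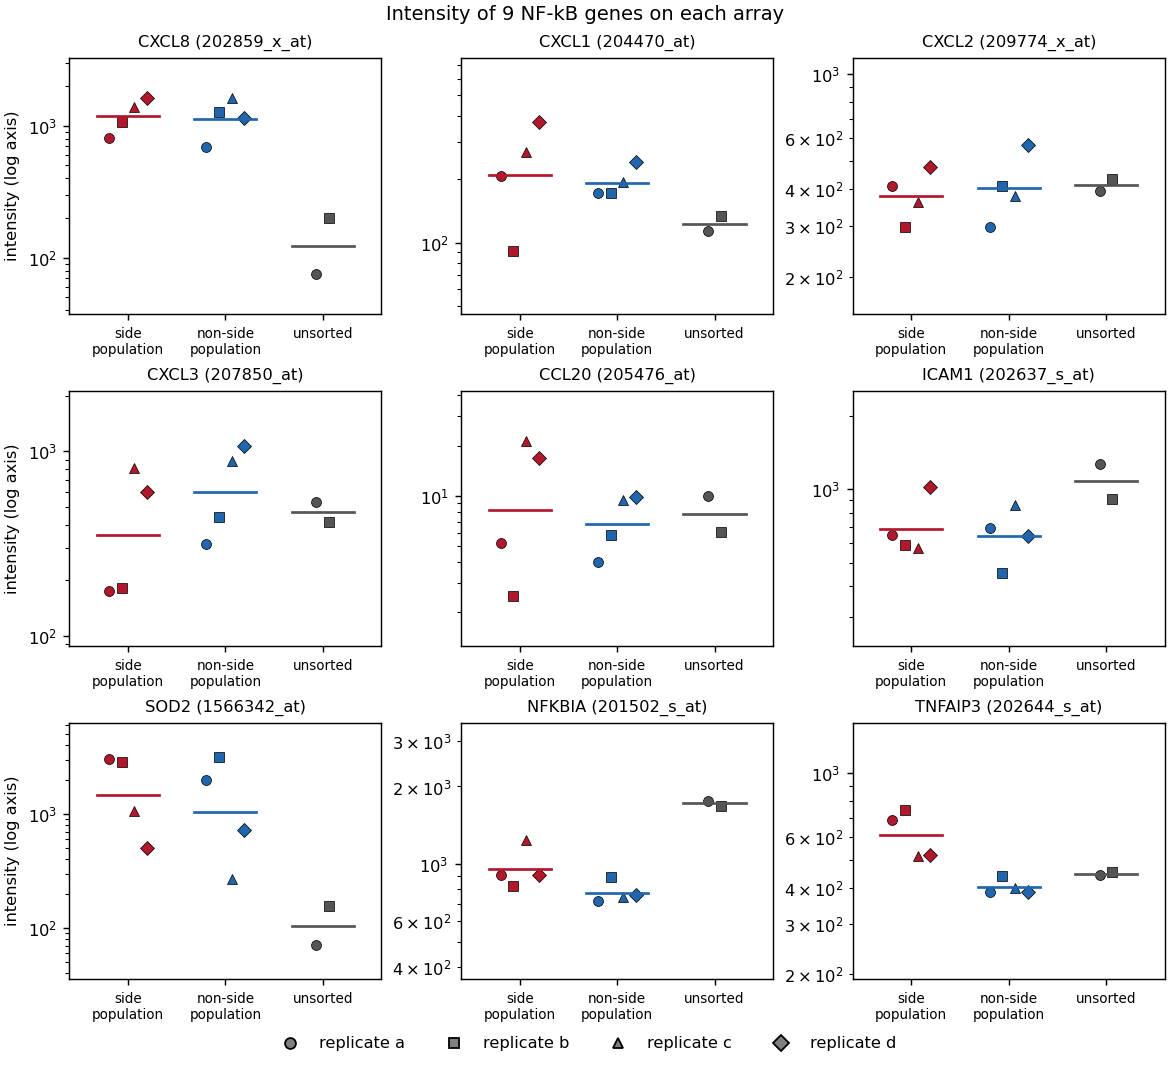
Deposited intensity (log axis, arbitrary units) of 1 probe set for each of the 9 genes on every array of side population, non-side population and unsorted cells. Point shape gives the replicate letter and the bar is the mean of the log values in each group. CXCL8 and SOD2 lie higher, and NFKBIA lower, on all 8 sorted arrays than on both unsorted arrays, while CXCL2 and CXCL3 overlap between the groups.

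CXCL8 (interleukin-8) is the main attractant of neutrophils and acts on the receptors CXCR1 and CXCR2. Its probe set 202859_x_at read 808.9, 1076.3, 1379.1 and 1619.6 in side population replicates a to d and 692.5, 1261.1, 1627.9 and 1144.7 in non-side population replicates a to d. It read 74.9 and 199.5 in unsorted replicates a and b. The lowest sorted array was thus above the higher unsorted array, and the 2 sorted populations covered the same range. The means were 1220 ± 353 in side population (SD, n = 4), 1180 ± 386 in non-side population (n = 4) and 137 ± 88.1 in unsorted cells (n = 2). Side population minus unsorted gave a log2 difference of 3.20 ± 0.41, a 9.2-fold higher value, and non-side population minus unsorted gave 3.14 ± 0.41, 8.8-fold. Between side and non-side population it was 0.06 ± 0.33 with a 95% interval from -0.65 to 0.77 (adjusted p = 1, limma).

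A second CXCL8 probe set, 211506_s_at, also averaged higher in both sorted populations. It read 33, 216, 160 and 478.2 in side population replicates a to d, 225.2, 472.7, 493.2 and 204 in non-side population replicates a to d, and 39.3 and 40.4 in unsorted cells. Every sorted array except side population replicate a, whose actin ratio was high, lay above both unsorted arrays. The log2 differences from unsorted cells were 1.82 ± 0.73 for side population and 2.84 ± 0.73 for non-side population. Between side and non-side population the difference was -1.01 ± 0.60, of opposite sign to the other probe set. On the sorted arrays with a low 18S control, CXCL8 (202859_x_at) read 1619.6 (side population d) and 1627.9 (non-side population c), the 2 highest values of all, against 74.9 and 199.5 on the unsorted arrays, whose 18S control was also low.

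CXCL1, CXCL2 and CXCL3 are close paralogues that act on CXCR2. Their probe sets may share signal, which was not tested. None showed a gap from unsorted cells of the size seen for CXCL8. CXCL1 read 206.7, 91.7, 269.9 and 375.6 in side population replicates a to d, 172.5, 172.6, 193.5 and 240.5 in non-side population replicates a to d, and 113.2 and 133.6 in unsorted cells. All 4 non-side population arrays were above both unsorted arrays, and side population replicate b was below both. The log2 difference was 0.75 ± 0.43 for side population minus unsorted, 0.62 ± 0.43 for non-side population minus unsorted, and 0.12 ± 0.35 for side minus non-side population (95% interval -0.64 to 0.88, adjusted p = 1, limma).

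CXCL2 (209774_x_at) read 409.3, 297.2, 360.5 and 477 in side population replicates a to d, 297.6, 412.3, 380.2 and 567.2 in non-side population replicates a to d, and 394.5 and 433.9 in unsorted cells. The 3 groups lay within one another, with means of 386 ± 76.1 in side population, 414 ± 113 in non-side population and 414 ± 27.9 in unsorted cells (SD, n = 4, 4 and 2). In log2 terms they differed by -0.12 ± 0.30 for side population minus unsorted and -0.04 ± 0.30 for non-side population minus unsorted. Side minus non-side population gave -0.08 ± 0.25 (95% interval -0.61 to 0.44, adjusted p = 1, limma). Of the other CXCL2 probe sets, 230101_at lay under the array median on 9 arrays and 1569203_at on all 10. The dim 230101_at read 21.1 to 85.7 on the sorted arrays and 19.7 and 1.8 on the unsorted arrays. It differed by 1.63 ± 0.65 for side population minus unsorted and 1.76 ± 0.65 for non-side population minus unsorted. Probe set 1569203_at read only 1 to 48.3 on the sorted arrays. For side minus non-side population it gave -1.60 ± 0.60 (95% interval -2.88 to -0.32, not adjusted for the number of probe sets).

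CXCL3 read 174.6, 181.2, 808.8 and 597.3 in side population replicates a to d, 313.2, 442.1, 890.1 and 1066.7 in non-side population replicates a to d, and 532.6 and 413 in unsorted cells. In both sorted populations replicates c and d were higher than a and b, and both unsorted arrays lay within the range of each. Side minus non-side population gave a log2 difference of -0.76 ± 0.49 (95% interval -1.81 to 0.28, adjusted p = 0.997, limma). In each of the 4 letters side population was lower than non-side population. With the letter as a block the difference was -0.76 ± 0.26, and CXCL3 was not called. Against unsorted cells the log2 difference was -0.40 ± 0.60 for side population and 0.36 ± 0.60 for non-side population.

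CXCL3 and TNFAIP3 were the genes called within part of the data. Within replicates a and b, where the source label of the side population arrays names no line, so that line and population cannot be told apart, the log2 difference of CXCL3 between side and non-side population was -1.04 ± 0.28 (adjusted p = 0.0395, limma), and 905 genes (9.15%) were called. Within replicates c and d it was -0.48 ± 0.28 (adjusted p = 0.983), and 0 genes were called. The difference between these 2 values was not past the threshold (adjusted p = 0.351). Over all 21 alternatives the adjusted p of CXCL3 ranged from 0.0395 to 1, and on the arrays labelled AGS alone its log2 difference was 0.20 ± 0.44.

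CCL20 attracts dendritic cells and lymphocytes through the receptor CCR6. Its intensity was 2.5 to 21.4 in side population, 4 to 9.8 in non-side population and 6.1 to 10 in unsorted cells, under the array median on all 10 arrays. At this signal the gene was under the filter on low intensity, and a difference was not tested. Its log2 differences were 0.17 ± 0.53 for side population minus unsorted, -0.09 ± 0.53 for non-side population minus unsorted and 0.26 ± 0.43 for side minus non-side population.

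ICAM1 is the adhesion receptor to which leukocyte integrins bind. Its probe set 202637_s_at read 649.7, 591.7, 573.2 and 1022.4 in side population replicates a to d, 694.6, 453.5, 862.6 and 641.6 in non-side population replicates a to d, and 1269.1 and 911.9 in unsorted cells. The 4 non-side population arrays were below both unsorted arrays, and side population replicate d lay between the 2 unsorted arrays. Its log2 differences were -0.64 ± 0.32 for side population minus unsorted, -0.73 ± 0.32 for non-side population minus unsorted and 0.09 ± 0.26 for side minus non-side population (95% interval -0.46 to 0.64, adjusted p = 1, limma).

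The other ICAM1 probe sets did not all keep these signs. Probe set 202638_s_at differed by -0.12 ± 0.37 for side population minus unsorted and -0.75 ± 0.37 for non-side population minus unsorted. Probe set 215485_s_at differed by -0.36 ± 0.36 for side population and by 0.02 ± 0.36 for non-side population. Between side and non-side population, 202638_s_at gave 0.63 ± 0.30 and 215485_s_at gave -0.38 ± 0.29.

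SOD2 encodes the manganese superoxide dismutase of mitochondria, which turns superoxide into hydrogen peroxide, and it is a known NF-kB target. Its only probe set annotated to 1 symbol, 1566342_at, read 3054, 2864.8, 1062.8 and 506 in side population replicates a to d and 1999.9, 3142.2, 267.3 and 723.2 in non-side population replicates a to d. It read 71.5 and 154.4 in unsorted cells. All 8 sorted arrays were above both unsorted arrays, but the sorted arrays themselves ranged from 267.3 to 3142.2. The means were 1870 ± 1280 in side population, 1530 ± 1300 in non-side population and 113 ± 58.6 in unsorted cells (SD, n = 4, 4 and 2). Side population exceeded unsorted cells by 3.73 ± 0.83 in log2 value, 13.3-fold, and non-side population by 3.25 ± 0.83, 9.49-fold. Side minus non-side population gave 0.48 ± 0.68 (95% interval -0.97 to 1.94, adjusted p = 1, limma).

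A further 4 probe sets are annotated to SOD2 together with SOD2-OT1, a transcript that overlaps the gene, and none of these separated sorted from unsorted cells. The first, 215223_s_at, read 1147.6, 1260.6, 1359.1 and 1144.8 in side population replicates a to d, 1208.7, 1859.5, 901.2 and 878.4 in non-side population replicates a to d, and 818.8 and 1422.5 in unsorted cells. All groups overlapped, and the log2 difference from unsorted cells was 0.18 ± 0.32 for side population (95% interval -0.50 to 0.87) and 0.10 ± 0.32 for non-side population (-0.59 to 0.78). For 216841_s_at it was -0.22 ± 0.31 for side population (-0.88 to 0.44) and -0.13 ± 0.31 for non-side population (-0.79 to 0.53). For 221477_s_at it was 0.66 ± 0.39 for side population (-0.16 to 1.49) and 0.58 ± 0.39 for non-side population (-0.25 to 1.41). These intervals lie below the log2 differences of 3.73 and 3.25 given by 1566342_at. The fourth, 215078_at, lay under the array median on 9 arrays and differed from unsorted cells by -0.20 ± 0.53 (side population) and 0.76 ± 0.53 (non-side population). Between side and non-side population this dim probe set gave -0.96 ± 0.43 (95% interval -1.88 to -0.04, not adjusted for the number of probe sets). In that comparison 215223_s_at gave 0.08 ± 0.26, 216841_s_at -0.09 ± 0.25 and 221477_s_at 0.08 ± 0.31. The higher SOD2 value in sorted cells therefore rests on 1 of the 5 probe sets that carry the symbol.

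**Figure D2:**
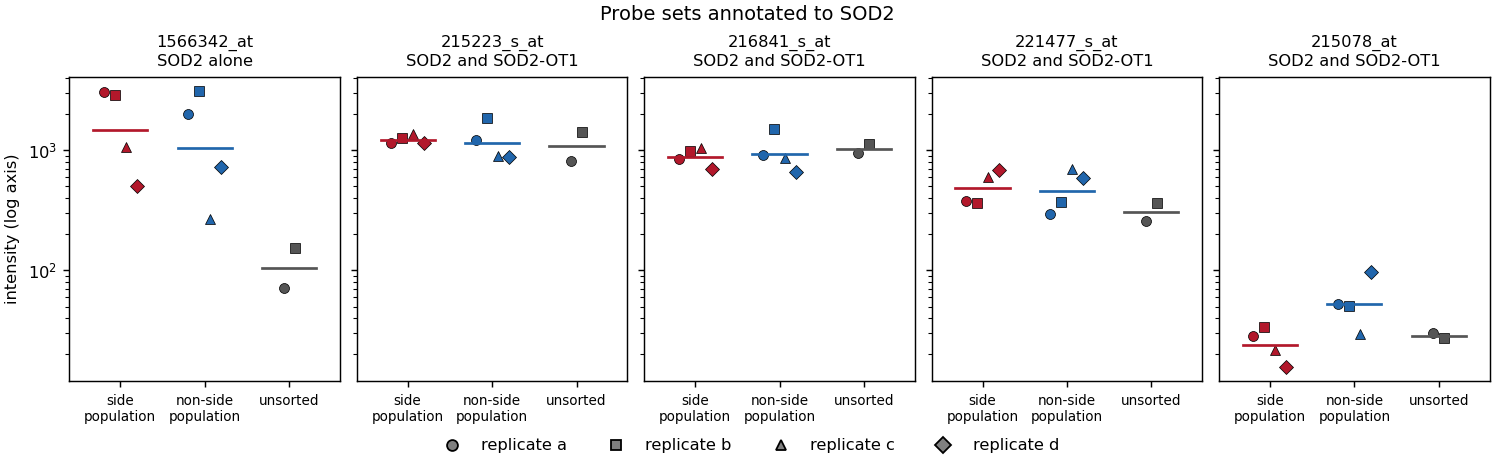
Deposited intensity (log axis, arbitrary units) of the 5 probe sets annotated to SOD2 on every array of side population, non-side population and unsorted cells. Points are arrays, shapes are replicate letters and bars are means of the log values. The sorted and unsorted arrays separate for 1566342_at and overlap for the 4 probe sets shared with SOD2-OT1.

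The SOD2 probe set 1566342_at also moved with the 18S control. It read 506 in side population d, 267.3 in non-side population c, and 71.5 and 154.4 in unsorted cells, the 4 arrays with a low 18S control. On the other 6 arrays, all sorted, it read 723.2 to 3142.2. Among the 4 arrays with low 18S signal the 2 sorted ones were still above the 2 unsorted ones. On the sorted arrays SOD2 also split by replicate letter. Replicates a and b read 1999.9 to 3142.2, and c and d read 267.3 to 1062.8. Side population c and non-side population d had a bright 18S control (29748.9 and 22182.4) but read lower than a and b. The part of 18S signal or of the replicate letter in the SOD2 values was not tested. CXCL8 did not show the 18S order, since its 2 highest values were on sorted arrays with low 18S signal.

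**Figure D3:**
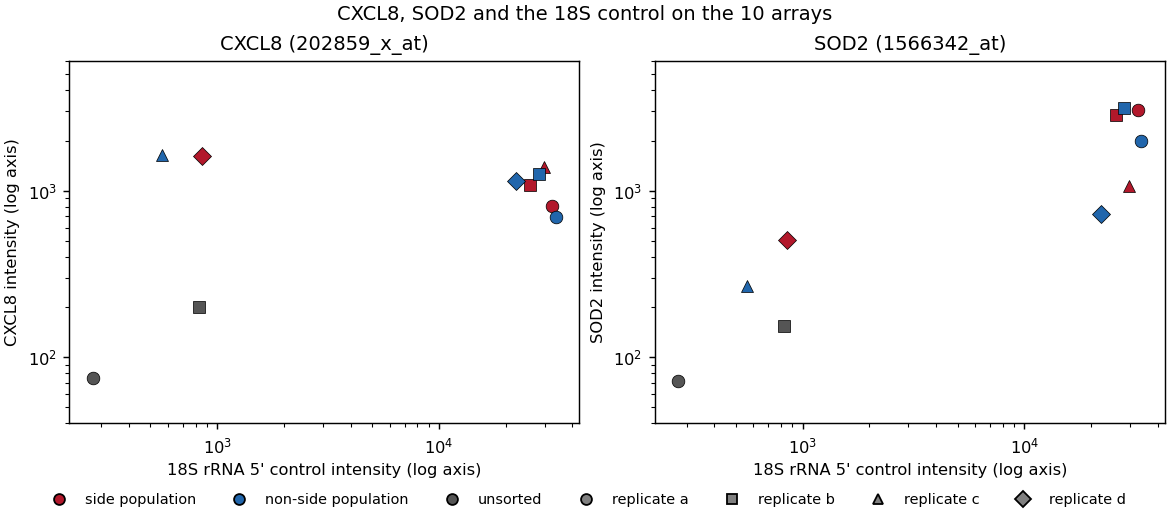
Intensity of CXCL8 (202859_x_at, left) and SOD2 (1566342_at, right) against that of the 5' control for 18S ribosomal RNA on the 10 arrays, both axes on log scales in arbitrary units. Colour gives side population, non-side population and unsorted cells, and shape the replicate letter. SOD2 is lower on the 4 arrays with low 18S signal than on the other 6, while CXCL8 is highest on 2 of those 4 arrays and lowest on the unsorted pair.

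NFKBIA (IkB-alpha) holds NF-kB dimers in the cytoplasm and is itself switched on by them. Its probe set 201502_s_at read 909.4, 820.4, 1234.7 and 909 in side population replicates a to d, 717.1, 888.6, 748.3 and 757 in non-side population replicates a to d, and 1763.8 and 1686.7 in unsorted cells. Every sorted array was below both unsorted arrays. The means were 968 ± 182 in side population, 778 ± 75.9 in non-side population and 1730 ± 54.5 in unsorted cells (SD, n = 4, 4 and 2). Log2 differences of -0.85 ± 0.24 for side population minus unsorted and -1.15 ± 0.24 for non-side population minus unsorted were opposite in sign to those of CXCL8. Side minus non-side population gave 0.30 ± 0.20 (95% interval -0.12 to 0.73, adjusted p = 0.997, limma). A dim second probe set, 231699_at, under the array median on 9 arrays, also averaged lower in sorted cells, by -1.17 ± 0.66 for side population and -0.80 ± 0.66 for non-side population.

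TNFAIP3 (A20) edits ubiquitin chains on signalling proteins and thereby ends NF-kB activation. Its probe set 202644_s_at read 686.8, 746.1, 513.4 and 517.3 in side population replicates a to d, 387.5, 439.7, 399.9 and 385.2 in non-side population replicates a to d, and 441.5 and 453.3 in unsorted cells. The 4 side population arrays were above all other arrays, and the 4 non-side population arrays were below both unsorted arrays. The means were 616 ± 119 in side population, 403 ± 25.3 in non-side population and 447 ± 8.34 in unsorted cells (SD, n = 4, 4 and 2).

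The log2 difference of TNFAIP3 between side and non-side population was 0.59 ± 0.21, with a 95% interval from 0.14 to 1.03. It did not pass the threshold after adjustment over all genes (unadjusted p = 0.0135, adjusted p = 0.997, limma). Within replicates a and b it was 0.79 ± 0.23 (adjusted p = 0.0499) and within c and d 0.39 ± 0.23 (adjusted p = 0.983), and these 2 values did not differ past the threshold (adjusted p = 0.421). Over 21 alternatives its adjusted p ranged from 0.0499 to 1. The log2 difference from unsorted cells was 0.44 ± 0.26 for side population and -0.15 ± 0.26 for non-side population. A second probe set, 202643_s_at, overlapped between the groups and gave 0.21 ± 0.28 for side minus non-side population.

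Between side and non-side population, 0 of the 8 tested genes were called at an adjusted p under 0.05, and the percentage called over all 9888 genes was 0 as well (limma), while 430 of them had an unadjusted p under 0.05. Among the 8 genes, 6 had a positive and 2 a negative log2 difference, with a median of 0.10 against 0.04 over all genes tested. The arrays of the 2 populations did not overlap for 1 of the 8, TNFAIP3, against 1.59% of all genes (1.01% higher and 0.576% lower in side population). For the probe sets used in the fit, the 95% intervals of CXCL8, CXCL1, CXCL2, NFKBIA and ICAM1 all lay within 1 log2 unit of 0. Those of CXCL3 and SOD2 were wider. Intervals of other probe sets of CXCL8, CXCL2, NFKBIA and ICAM1 passed 1 log2 unit. They were -2.30 to 0.27 for 211506_s_at of CXCL8 and -0.01 to 1.27 for 202638_s_at of ICAM1, for example.

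Against unsorted cells the counts are a description, since the genes were chosen with that comparison known, and both comparisons use the same 2 unsorted arrays. CXCL8, CXCL1 and SOD2 also passed the filter through the sorted arrays. For side population minus unsorted, 2 of 8 genes were called, CXCL8 and SOD2, both higher, beside 2.35% of all genes (1.81% higher and 0.536% lower). The arrays did not overlap for 4 of 8, with CXCL8, SOD2 and TNFAIP3 higher and NFKBIA lower, beside 36.7% of all genes (21.3% higher and 15.4% lower). For non-side population minus unsorted, 3 of 8 were called, CXCL8 and SOD2 higher and NFKBIA lower, beside 3.52% of all genes (2.37% higher and 1.15% lower). The arrays did not overlap for 6 of 8, with CXCL8, CXCL1 and SOD2 higher and NFKBIA, TNFAIP3 and ICAM1 lower, beside 31.9% of all genes (15.6% higher and 16.3% lower). The log2 difference was positive for 4 and negative for 4 of the 8 genes in each comparison, with a median of 0.16 in both. Over all genes tested the median was 0.04 for side population and -0.01 for non-side population minus unsorted.

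These counts rest on the 2 unsorted arrays. Without unsorted replicate a, 0 of the 8 genes were called in either comparison, and without replicate b CXCL8 alone was called in both. Without side population replicate a, b or c, CXCL8 alone was called for side population minus unsorted. The SOD2 call in that comparison was also lost with no filter, with quantile normalization and on the arrays labelled AGS alone, 8 of 18 alternatives in all. For non-side population minus unsorted, 13 of 18 alternatives lost the SOD2 call.

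**Figure D4:**
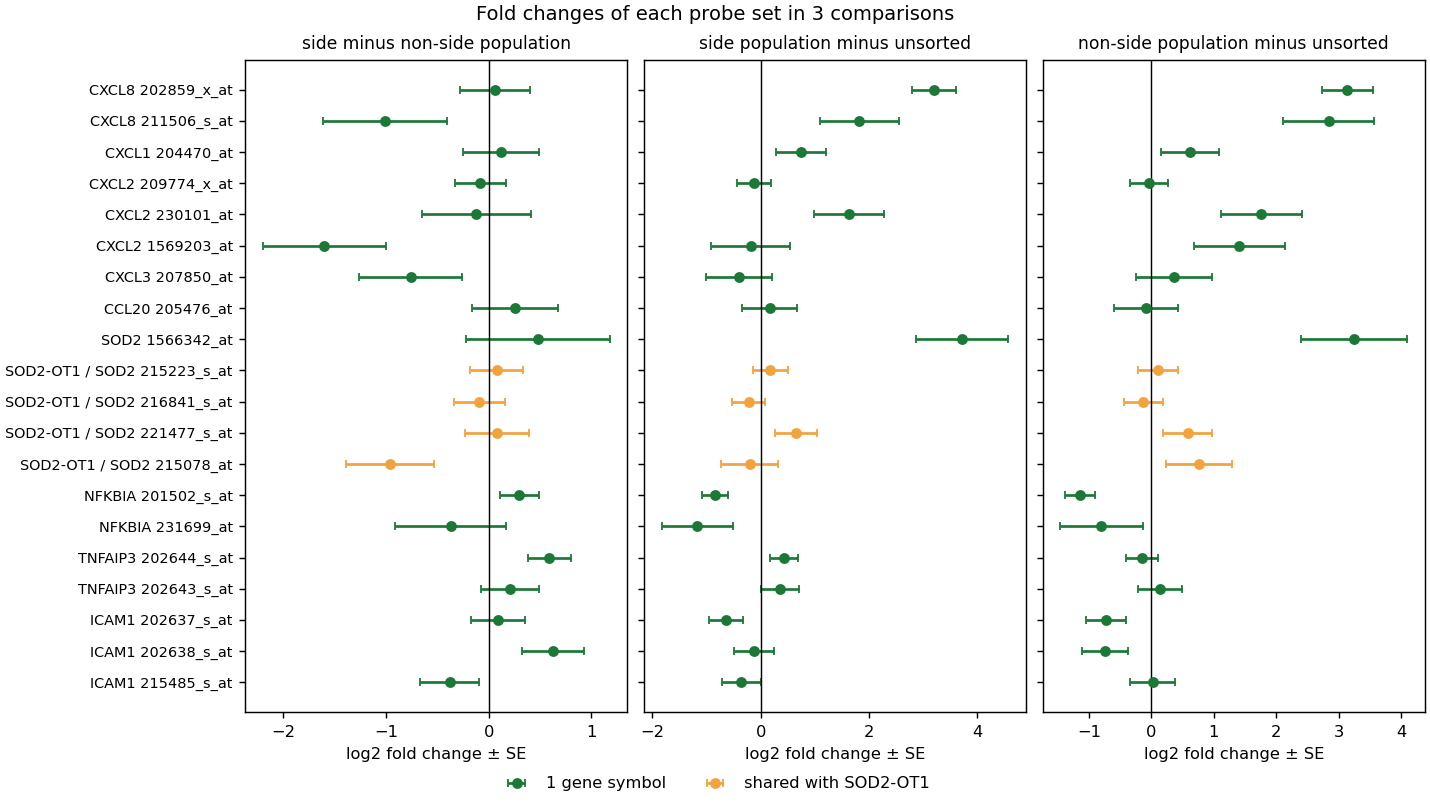
Log2 difference with its standard error for each of the 20 probe sets in the 3 comparisons (side minus non-side population, side population minus unsorted, non-side population minus unsorted), from limma over all 10 arrays. Green marks probe sets with 1 gene symbol and orange those shared with SOD2-OT1. CXCL8 and 1566342_at of SOD2 stand furthest to the right against unsorted cells, and the other SOD2 probe sets lie near 0.

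The rest of the pathway was read from 10 lists, 102 of whose genes were measured and 64 tested. Between side and non-side population 0 of the 64 were called, with 39 positive and 25 negative differences and a median log2 difference of 0.09. Against unsorted cells 2 were called, IL11 and IER3, in each comparison and both higher in sorted cells, IL11 after passing the filter through the sorted arrays alone. That is 3.12% of the 64, beside 2.35% of all genes for side population and 3.52% for non-side population. The median over the 64 was -0.02 for side population and -0.03 for non-side population minus unsorted.

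IL11, a cytokine of the interleukin-6 family, read 413.4, 263.9, 190.4 and 209.9 in side population replicates a to d, 331.6, 279.2, 322.9 and 295.8 in non-side population replicates a to d, and 50.3 and 68.8 in unsorted cells. All sorted arrays were above both unsorted arrays. IL11 averaged below the filter's intensity of 149 in unsorted cells. Like CXCL8, CXCL1 and SOD2, it thus entered the fit through the sorted arrays, and its call is given as a description. Its log2 difference was 2.02 ± 0.33 for side population minus unsorted and 2.27 ± 0.33 for non-side population minus unsorted. Of 12 cytokine genes measured, 5 entered the fit, and the other 4 of these were not called.

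IER3, an early response gene that modulates apoptosis, read 7675, 6980.5, 10903.2 and 7505.7 in side population replicates a to d, 8510.3, 9748.4, 9846 and 10115.8 in non-side population replicates a to d, and 2535.6 and 2368.7 in unsorted cells. The sorted and unsorted arrays were again separate. The log2 difference was 1.73 ± 0.23 for side population minus unsorted (adjusted p = 0.00255, limma) and 1.96 ± 0.23 for non-side population minus unsorted (adjusted p = 0.00107). Since the lists were chosen with earlier results of these data known, the IER3 call is also a description. IER3 was the 1 gene called of 14 other NF-kB target genes tested. Of these 14, 11 were positive and 3 negative in each comparison with unsorted cells. Their median log2 difference was 0.53 for side population and 0.35 for non-side population, beside 0.04 and -0.01 over all genes tested. Without unsorted replicate a or b, both IL11 and IER3 lost the call for side population minus unsorted. For non-side population minus unsorted, IL11 lost it without unsorted replicate a.

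In the other 8 pathway lists 0 genes were called in any comparison. Of the 5 NF-kB subunits, 1 was positive and 4 negative for side population minus unsorted. NFKB1, the precursor of p50, averaged 875 ± 157 in side population, 764 ± 278 in non-side population and 1100 ± 50.5 in unsorted cells, with a log2 difference of -0.34 ± 0.32 for side population (adjusted p = 0.648, limma) and -0.60 ± 0.32 for non-side population (adjusted p = 0.334). REL, the c-Rel subunit, gave 0.62 ± 0.31 for side population (adjusted p = 0.329, limma) and 0.60 ± 0.31 for non-side population (adjusted p = 0.308). The subunit genes thus showed no difference past the threshold from unsorted cells.

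Among the 4 other IkB proteins, NFKBIZ, a nuclear IkB that acts with NF-kB on secondary response genes, averaged 1480 ± 404 in side population, 1420 ± 311 in non-side population and 741 ± 84.2 in unsorted cells. Its log2 difference was 0.95 ± 0.30 for side population (adjusted p = 0.11, limma) and 0.91 ± 0.30 for non-side population (adjusted p = 0.107), which did not pass. NFKBIB, which like NFKBIA retains NF-kB in the cytoplasm, gave 0.23 ± 0.25 for side population and 0.39 ± 0.25 for non-side population. Its differences are of opposite sign to those of NFKBIA.

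Of the 8 tested kinases, 6 were negative for side population minus unsorted and 7 for non-side population minus unsorted. IKBKG came nearest the threshold among them. It gave -0.89 ± 0.24 for side population (adjusted p = 0.0708, limma) and -0.89 ± 0.24 for non-side population (adjusted p = 0.0576). The kinases TBK1 and IRAK1, which relay innate immune signals, differed from unsorted cells by -0.43 ± 0.25 and -0.04 ± 0.33 in side population and by -0.41 ± 0.25 and -0.50 ± 0.33 in non-side population. Of 11 adaptors, BCL10, which links antigen and other receptors to IkB kinase, gave 0.68 ± 0.35 for side population (adjusted p = 0.336, limma) and 0.85 ± 0.35 for non-side population (adjusted p = 0.197), and MYD88, the adaptor of Toll-like receptors, gave -0.17 ± 0.24 for side population and -0.39 ± 0.24 for non-side population. The adaptors nearest the threshold were TRAF3 and TRAF6. TRAF3 gave 1.13 ± 0.29 for side population (adjusted p = 0.0566, limma), and TRAF6 gave -1.58 ± 0.44 for non-side population (adjusted p = 0.0612). Some of the alternatives to the fit called IKBKG, TRAF3 or TRAF6 against unsorted cells. Among genes of other lists, some called CXCL10, PTGS2 or SERPINA3 in these comparisons. The A20 partners TNIP1 and TNIP2 differed between side and non-side population by 0.40 ± 0.27 and 0.09 ± 0.22. All 4 tested genes of their list were positive in that comparison, and none passed.

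Of the 10 tested receptors, 8 were negative for side population minus unsorted. TNFRSF1A, the main receptor for tumour necrosis factor, gave -0.18 ± 0.30 for side population and -0.46 ± 0.30 for non-side population, and TNFRSF12A, the TWEAK receptor, gave -0.36 ± 0.32 for side population and -0.17 ± 0.32 for non-side population. Of 12 other chemokines measured, 3 were tested, and all 3 were negative in both comparisons with unsorted cells. The median log2 difference was -1.23 for side population and -1.17 for non-side population. CXCL10 came nearest the threshold among them, with -1.23 ± 0.39 for side population (adjusted p = 0.112, limma) and -1.35 ± 0.39 for non-side population (adjusted p = 0.0679). CXCL11, a ligand of CXCR3, averaged 333 ± 163 in side population, 377 ± 190 in non-side population and 794 ± 26 in unsorted cells, and its log2 difference was -1.37 ± 0.44 for side population (adjusted p = 0.114, limma) and -1.17 ± 0.44 for non-side population (adjusted p = 0.157). Its difference, which did not pass, has the opposite sign to that of CXCL8. CXCL16, a membrane-bound chemokine, gave -0.03 ± 0.24 for side population and -0.25 ± 0.24 for non-side population. The 6 receptors and integrins that bind the chemokines or ICAM1, CXCR1, CXCR2 and CCR6 among them, were all under the filter.

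The other enzymes that handle superoxide and peroxide gave no counterpart to 1566342_at of SOD2, with 0 of 12 called and a median log2 difference of 0.10 for side population and 0.15 for non-side population minus unsorted. SOD1, the cytosolic superoxide dismutase, averaged 29100 ± 2050 in side population, 31100 ± 8410 in non-side population and 25000 ± 1570 in unsorted cells, a log2 difference of 0.22 ± 0.25 for side population (adjusted p = 0.727, limma) and 0.27 ± 0.25 for non-side population (adjusted p = 0.596). PRDX1, a peroxiredoxin that breaks down hydrogen peroxide, gave 0.08 ± 0.28 for side population and 0.11 ± 0.28 for non-side population.

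**Figure D5:**
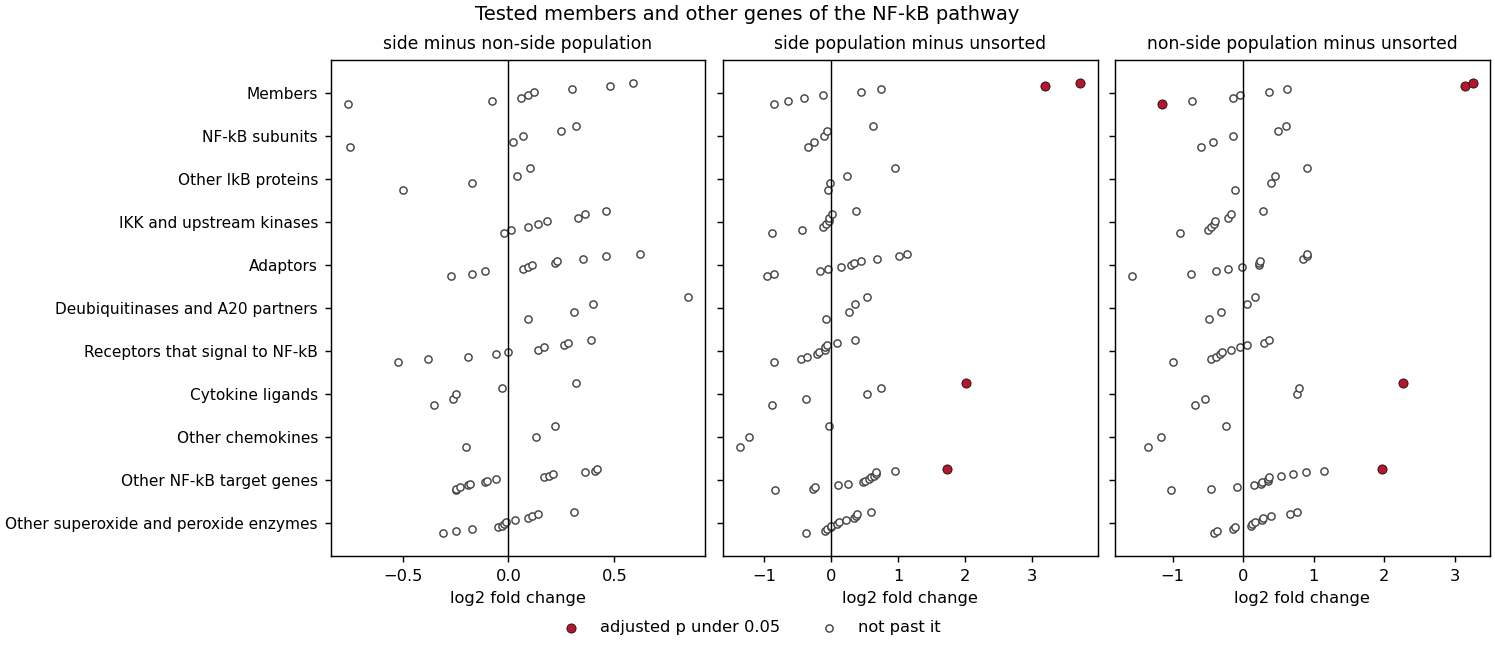
Log2 differences (limma, all 10 arrays) of the 8 tested genes described here, top row, and of the 64 tested genes in the NF-kB pathway lists and 12 tested superoxide and peroxide enzymes, for side minus non-side population, side population minus unsorted and non-side population minus unsorted. Filled points passed an adjusted p under 0.05. Apart from CXCL8, SOD2 and NFKBIA, the filled points are IL11 among the cytokine ligands and IER3 among the target genes.

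The tested genes most like CXCL8 over the 10 arrays, by Pearson correlation of log2 values, were EIF2AK2 (0.976), IFI16 (0.968), ZKSCAN1 (0.965), CEP68 (0.964) and ACER2 (0.961). Over the 8 sorted arrays alone they were IFI44L (0.937), NECTIN3 (0.928), PHLDA1 (0.924), DENND5B (0.919) and USP24 (0.919). The 2 sets of 5 had no gene in common, and the arrays share the split between sorted and unsorted cells in the first set. For 1566342_at of SOD2 they were FBXO11 (0.984), ZNF57 (0.972), COQ10B (0.968), DDX52 (0.968) and C9orf78 (0.967) over 10 arrays. Over the 8 sorted arrays they were RPL27A (0.976), CFAP73 (0.976), DUT (0.974), RPLP2 (0.972) and ODC1 (0.970). No gene was in the lists of both CXCL8 and SOD2. These correlations were the highest of 9888 genes and describe the arrays, which also share the 18S pattern and the split by replicate letter.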

How the data were processed

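Gene expression was measured on 10 single-channel arrays with 54675 probe sets. The authors deposited intensities on a linear scale from 0.1 to 74993.2. GCOS 1.4 appears in the submitters' processing notes, while its algorithm and settings were not given in the sources used here. With 2% left out at each end, the trimmed mean was 500.065 to 500.095 on every array, so no further scaling was applied. Array medians ranged from 58.7 to 85.4. No detection calls were used here, and the number of arrays limits the precision.

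Symbols came from the platform annotation (41097 with 1 symbol, 1801 with several, 11777 with none). Each gene was read from its brightest probe set, by mean log2 value, among those with 1 symbol. For SOD2 this left out the probe sets shared with SOD2-OT1. Genes at or above the median of these means were tested (9888 of 19775 genes, an intensity of 149). Before log2, 6.1 (the 10th percentile over all arrays) was added, so differences of dim genes are understated. R 4.3.3 with limma 3.58.1 (eBayes with a trend) tested the differences over all 10 arrays without covariates, with Benjamini-Hochberg adjustment over the genes tested and calls under 0.05. The fit was tested on simulated data.

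The genes and lists were chosen with earlier results of these data known. The text names all 10 listed genes with their probe sets, up to 4 called genes of each pathway list or otherwise up to 2 of highest mean, and the 5 tested genes most correlated with CXCL8 and with SOD2. It also gives the kinase, the adaptors and the other chemokine nearest the threshold. The alternatives were other added constants, other filters, quantile normalization, all probe sets singly, no trend, only the compared groups, only arrays labelled AGS, leaving out each array, the replicate letter as a block, and each pair of letters.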

Additional observations from a re-analysis of the deposited data

Results flagged for a closer look

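The CXCL2 probe set 1569203_at read 48.3 in side population replicate d and 1 to 2.5 in the other 3 side population arrays. The gap to the nearest of the others was 0.906 of the range of the log2 values, above Dixon's 95% critical value for 4 samples. This probe set lay under the array median on all 10 arrays. Chance puts about 1 in 20 groups above that value, and 1 of 40 groups tested was above it, where 2 would be expected.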

How the results depend on the processing

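The differences of CXCL8 from unsorted cells stayed between 2.53 and 3.87 (side population) and between 2.47 and 3.81 (non-side population) over 18 alternatives each, those of 1566342_at of SOD2 between 2.73 and 4.25 (side population) and between 2.70 and 3.90 (non-side population), and those of NFKBIA between -0.97 and -0.70 (side population) and between -1.21 and -1.08 (non-side population). For side population minus unsorted, 2 of the genes were called, against 1 with no filter, with quantile normalization or on the arrays labelled AGS, and 0 to 2 with 1 array left out. For non-side population minus unsorted it was 3, and 0 to 3 with 1 array left out. A lone unsorted array was taken to have the spread of the other groups. Of the pathway genes, 2 were called in each of these comparisons, against 1 with the filter at the 75th percentile, 4 for side population with only the groups compared, and 0 to 3 (side population) or 1 to 4 (non-side population) with 1 array left out. That filter left none of the genes to test. Between side and non-side population, 0 of the genes and 0 pathway genes were called, and within replicates a and b 2 genes (CXCL3 and TNFAIP3) and 3 pathway genes (TAB2, CYLD and IL32). Over all genes the alternatives called 0 to 905 for side minus non-side population (0 as reported), 9 to 437 for side population minus unsorted (232 as reported) and 12 to 736 for non-side population minus unsorted (348 as reported).

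Values of side minus non-side population that changed sign were not past the threshold either way. Within replicates a and b CXCL8 gave 0.00 and CXCL1 -0.31, and on the arrays labelled AGS CXCL2 gave 0.04, CXCL3 0.20 and SOD2 -0.52. With 1 array left out, CXCL8 ranged from -0.17 to 0.24, CXCL1 from -0.15 to 0.50, CXCL2 from -0.23 to 0.08, SOD2 from -0.17 to 1.01 and ICAM1 from -0.10 to 0.23. For side population minus unsorted on the arrays labelled AGS, CXCL2 gave 0.00 and CXCL3 0.56, and for non-side population minus unsorted CXCL2 ranged from -0.20 to 0.11 with 1 array left out. The cause of these changes was not tested. With the replicate block, 0 of the genes and 0 pathway genes were called between side and non-side population. The block gave standard errors of 0.26 for CXCL3 and 0.31 for SOD2, against 0.49 and 0.68 without it. Deviations of arrays with the same letter correlated at 0.212 (a), 0.498 (b), -0.117 (c) and 0.364 (d). Side population c correlated best with non-side population d (0.255), and d with c (0.429). The titles give both populations the same replicate groups. Since not every letter gave a positive value, the main fit did not take the letters as pairs. CCL20, 230101_at, 1569203_at and 231699_at were near the dim end, where signal limits what can be seen.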
